A study of Mus musculus with 20 samples.

Results

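The collagen genes of the mouse neocortex were measured in 20 male mice, 1 array per mouse. They were chosen by name: every gene whose symbol in the array annotation is Col, a number, the letter a and a number. This gave 42 genes of the 18193 genes with a probe set of 1 symbol, read by 82 probe sets. Each gene is represented by the probe set with the highest mean log2(signal + 16) over the 20 arrays. The rule itself uses no measured difference between groups, but it was set with earlier results of these data known. By the type of collagen, 11 genes are fibrillar (types I, II, III, V, XI, XXIV and XXVII), 6 are the type IV chains of basement membranes and 25 belong to other types.

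All mice were B6/C3H F1 hybrids, the first-generation cross also written B6C3F1, and were housed singly. There were 4 groups of 5. Old mice of 30 months had received from 15 months of age either a diet with both α- and γ-tocopherol, each at 500 mg/kg (the mixture), or one with α-tocopherol alone at 1000 mg/kg. Old control mice of 30 months and young control mice of 5 months had the control diet. Tocopherols are the main forms of vitamin E. Because each mouse had an array of its own, the p-values measure the spread between mice.

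Collagens are proteins of the extracellular matrix, made of alpha chains that wind around each other in threes into a stiff helix. Fibrillar types assemble into fibrils, type IV forms the net within basement membranes around vessels and below the pia, and other types sit on fibril surfaces, in cell membranes or in fine filaments. In the brain, fibrillar collagens lie mainly in the meninges and around larger vessels, and type IV chains come from endothelial cells and pericytes. Some chains, among them those of types XIX, XXIV and XXV, are also made by neurons.

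The array measures bear on all age comparisons and on those of either supplement with old control mice. The median signal of an array lay between 284 and 313 in old control mice, against 316 to 331 in young control mice. The β-actin 3′/5′ ratio, a measure of RNA integrity and labelling, averaged 1.43 ± 0.145 with the mixture and 1.67 ± 0.391 with α-tocopherol (SD, n = 5 each). It averaged 2.04 ± 0.339 in old control mice and 1.53 ± 0.135 in young control mice. The 18S rRNA control signal was 1184 to 2068 in old control mice, against 421 to 794 in young control mice, without overlap. It was 708 to 1138 with the mixture, below every old control mouse, and 655 to 2504 with α-tocopherol. The β-actin ratio ran from 1.22 to 1.60 with the mixture and from 1.73 to 2.52 in old control mice, also without overlap. With α-tocopherol it ran from 1.43 to 2.36, with a median of 1.54, against a median of 2.01 in old control mice. The labelled tissue carried its defining markers, with 8 of 9 cortical neuron genes above the filter on low signal and a summed signal of 116037 to 132264 in old control mice, against 100059 to 106469.7 in young control mice. Markers of other cells were present too. The summed signal of 14 of 15 listed meningeal fibroblast genes was 32196 to 40678 in old control mice and 29412 to 31782 in young control mice. Most of that sum is Ptgds, with 24174 to 33026 in old and 20973 to 23124 in young control mice. By gene, 6 of the 14 estimates were above and 8 below 0, with 1 called higher and 1 lower (7.14% each). Of all genes tested, 12.4% were called higher and 10.4% lower in this comparison. The summed signal of 11 of 14 endothelial genes was 14478 to 15962 in old and 13178 to 14439.6 in young control mice. By gene, 7 of the 11 estimates were above and 4 below 0. Eng and Slc2a1 were called higher, and Cldn5 and Cdh5 lower (18.2% of the list each way, against 12.4% and 10.4% of all genes). The summed signal of 8 of 10 choroid plexus genes was 10529.8 to 52403 in old control mice and 28724 to 42691 in young control mice. By gene, 1 of the 8 estimates was above and 7 below 0, with Kl called lower (12.5% of the list, against 10.4% of all genes). Of 7 bone and cartilage genes, 2 passed the filter, with a summed signal of 476 to 779.9 in old and 654 to 853 in young control mice. The part of these measures in the results was not tested, except where a value from a model with the β-actin ratio is given.

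With age, a few minor collagen chains had a lower signal, while Col1a1, Col1a2, Col3a1, Col4a2 and Col6a1 showed no called difference. Col4a1 was not called by its brightest probe set and was called lower by its other one, as given with the type IV chains. Between old and young control mice, 5 collagen genes passed the test with a lower signal (Col11a1, Col9a1, Col5a1, Col24a1 and Col6a3) and 1 with a higher signal (Col13a1), of the 36 that passed the filter on low signal. The test was limma over 13351 genes, with an adjusted p under 0.05. The share called lower was 13.9% of the collagen genes, against 10.4% of all genes tested, and the share called higher was 2.78%, against 12.4% of all genes tested. The median log2 difference was -0.21 over the collagen genes and -0.02 over all genes. The difference was below 0 in 29 of 36 collagen genes and in 7151 of 13351 genes. With array medians set equal, 87.3% of the calls over all genes were higher, against 54.5% as deposited, the median of all genes was 0.11, and 2 collagen genes were called higher and 2 lower. With the β-actin ratio in the model 3 collagen genes were called, all lower. Col11a1 and Col9a1 were among them, while Col5a1, Col24a1, Col6a3 and Col13a1 lost their calls. In tissue, fewer cells of a type and less RNA per cell cannot be told apart.

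Setting all 3 old groups, 15 mice, against the young control mice gave 5 collagen genes lower (Col11a1, Col9a1, Col5a1, Col24a1 and Col6a2) and 2 higher (Col13a1 and Col22a1). These were 13.9% and 5.56% of the collagen genes, against 15.1% and 15.4% of all genes tested. Both age comparisons share the young and the old control mice, so they are not independent of each other. By class, 3 of 11 fibrillar genes, 0 of 5 type IV genes and 2 of 20 other genes were called lower between old and young control mice. In that comparison 10.4% of all genes tested were called lower. The classes hold few genes, and whether they differ from each other or from all genes was not tested. The median log2 differences were -0.31, -0.28 and -0.13 for the fibrillar, type IV and other genes.

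**Figure D1:**
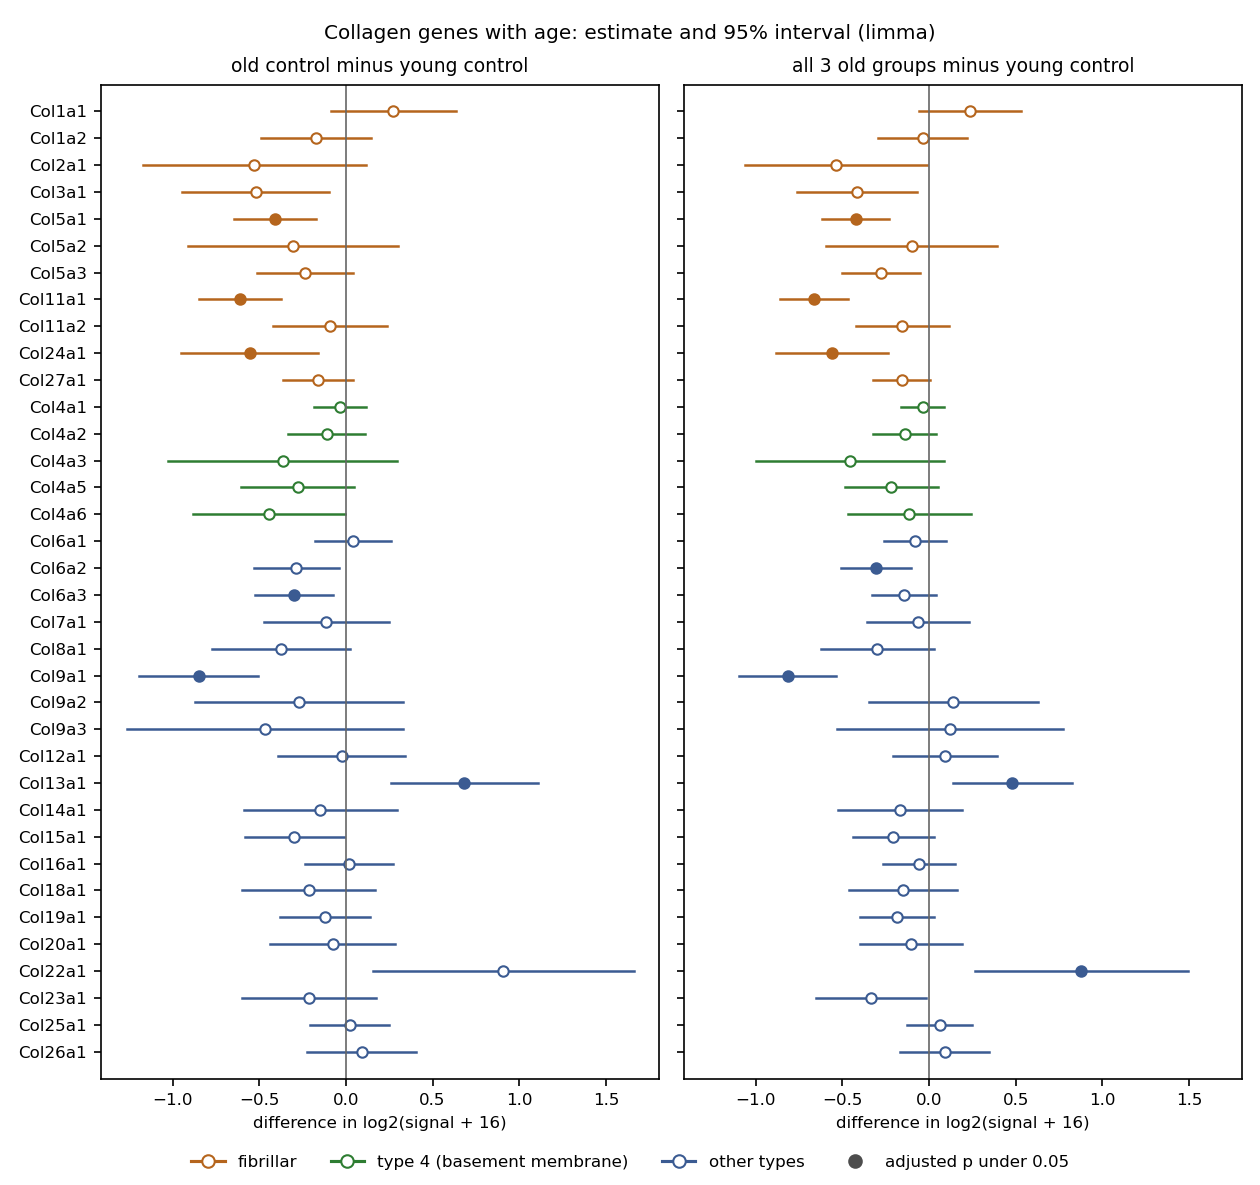
Difference in log2(signal + 16) for each of the 36 tested collagen genes (rows), as estimate and 95% interval from limma, for old control minus young control mice (left) and all old groups minus young control mice (right); filled points have an adjusted p under 0.05. Most estimates lie left of 0, the filled ones in the fibrillar class are Col5a1, Col11a1 and Col24a1, and no type IV gene is filled.

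Type XI and type V chains form thin fibrils or cores on which larger fibrils are laid down. Col11a1, a chain of type XI, had the smallest p of the collagen genes in both age comparisons. In the supplemented old mice its signal was 790.3 to 1115 with the mixture and 722 to 991 with α-tocopherol. Old control mice had 1053, 928, 1122, 843 and 826, against 1407, 1533, 1274, 1356 and 1760.1 in young control mice. Every old mouse, on any diet, lay below every young mouse. The mean signal was 954 ± 130.0 in old control mice and 1466 ± 189 in young control mice (SD, n = 5 each), a log2 difference of -0.61 ± 0.12 (SE, 95% interval -0.85 to -0.37, limma adjusted p = 0.000879). The old control mean was thus 1.53-fold lower. The call held under all 12 alternative settings and without any of the 20 mice, in both age comparisons. A second probe set of Col11a1 gave -0.69 ± 0.14 (adjusted p = 0.00349 over all 45037 probe sets that are not controls).

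Col5a1, a chain of type V, was also lower in old mice. Signals were 979.6 to 1675 with the mixture and 1144 to 1409.9 with α-tocopherol. The old control mice read 1446, 1041, 1277, 1201 and 1442, against 1806, 1804, 1731, 1599.8 and 1547 in young control mice. Old and young control mice did not overlap, and 1 mouse on the mixture, at 1675, lay among the young mice. The log2 difference between old and young control mice was -0.41 ± 0.12 (SE, adjusted p = 0.0139), a signal 1.33-fold lower. It was -0.28 with array medians set equal (adjusted p = 0.0646) and -0.31 with the β-actin ratio added to the model (adjusted p = 0.171), so that the call was lost in both. Over all old groups the difference was -0.42 ± 0.09 (adjusted p = 0.00188), and the call held under all 12 alternatives. Both other probe sets of Col5a1 had estimates below 0, at -0.49 ± 0.19 and -1.27 ± 0.44, and did not pass, with adjusted p of 0.109 and 0.0663 over all probe sets.

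Col24a1, the chain of type XXIV, known from developing bone and cortex, was the third fibrillar gene called. Signals were 257 to 356 with the mixture and 149 to 383 with α-tocopherol, where the lowest mouse had 149. Old control mice had 315, 317, 239, 287 and 333, against 379, 415, 372, 547 and 535 in young control mice. The ranges of old and young control mice did not overlap. The log2 difference was -0.56 ± 0.19 (SE, adjusted p = 0.0387), a signal 1.47-fold lower. The call was lost under 5 of 11 alternatives, with adjusted p up to 0.135. It was also lost when any of 7 mice was left out, young control mice 2, 4 and 5 and old control mice 1 to 4, with adjusted p up to 0.0953. In the 3 old groups together, it was -0.56 ± 0.16 (adjusted p = 0.00971) and held under all 11 alternatives and without any mouse.

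**Figure D2:**
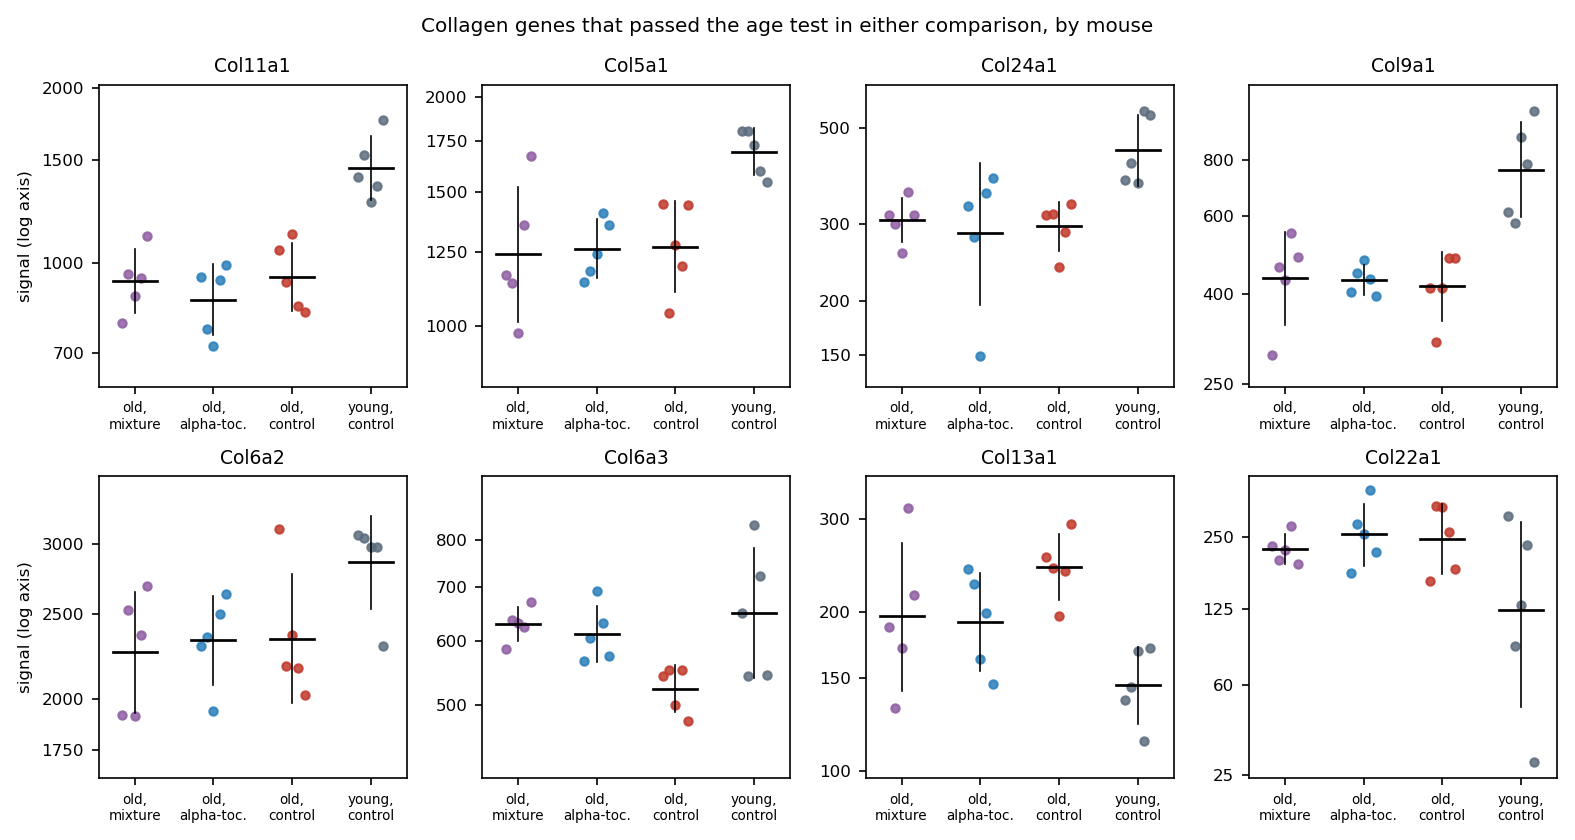
Deposited signal (log axis) of the 8 collagen genes called in either age comparison, with a point per mouse, the mean of log2(signal + 16) as a bar and ±1 SD as a line (n = 5 per group). For Col11a1 and Col9a1 all 15 old mice lie below the lowest young mouse, while for Col22a1 the 5 young mice are spread from 28.5 to 309.

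The bases just upstream of the annotated starts are printed for the 4 genes called lower in both age comparisons, as the stretch of DNA in which any promoter element these genes share would be looked for first. The windows are the 250 bases before a RefSeq start in GRCm38.p6, 5′ to 3′ on the gene's strand, which is the plus strand in all 5. Col9a1 has a pair of annotated starts. Capitals mark matches on either strand to GGGCGG (the GC box, bound by Sp1), to CCAAT (the box bound by NF-Y) and to TATAAA (the TATA box).
Col11a1, chr3:114030290-114030539: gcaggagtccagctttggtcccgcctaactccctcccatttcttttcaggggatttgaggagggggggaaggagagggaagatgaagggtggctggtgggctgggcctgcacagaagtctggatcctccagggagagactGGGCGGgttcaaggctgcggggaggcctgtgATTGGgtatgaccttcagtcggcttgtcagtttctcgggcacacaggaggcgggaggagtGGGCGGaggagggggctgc
Col5a1, chr2:27886175-27886424: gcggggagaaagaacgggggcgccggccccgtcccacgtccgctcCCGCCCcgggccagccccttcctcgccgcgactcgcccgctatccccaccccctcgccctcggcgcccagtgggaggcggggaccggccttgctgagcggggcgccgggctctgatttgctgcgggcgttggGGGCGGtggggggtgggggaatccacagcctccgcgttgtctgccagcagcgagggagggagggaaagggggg
Col24a1, chr3:145292222-145292471: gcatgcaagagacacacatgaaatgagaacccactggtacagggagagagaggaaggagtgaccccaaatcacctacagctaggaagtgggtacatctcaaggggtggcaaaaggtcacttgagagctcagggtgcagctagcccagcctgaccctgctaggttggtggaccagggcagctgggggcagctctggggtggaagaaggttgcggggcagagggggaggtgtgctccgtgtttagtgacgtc
Col9a1, upstream start, chr1:24177360-24177609: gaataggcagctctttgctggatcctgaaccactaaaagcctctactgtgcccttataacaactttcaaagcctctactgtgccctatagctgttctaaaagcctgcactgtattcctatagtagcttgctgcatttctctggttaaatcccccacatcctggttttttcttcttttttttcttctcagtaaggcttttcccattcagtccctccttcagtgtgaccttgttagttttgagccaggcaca
Col9a1, downstream start, chr1:24194953-24195202: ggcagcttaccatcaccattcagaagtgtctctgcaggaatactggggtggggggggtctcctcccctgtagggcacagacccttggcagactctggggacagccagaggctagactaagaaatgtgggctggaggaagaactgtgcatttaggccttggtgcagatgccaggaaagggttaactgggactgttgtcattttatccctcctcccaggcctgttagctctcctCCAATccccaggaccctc

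The Col5a1 window is rich in G and C (76.4%) with 28 CG pairs and 2 GGGCGG matches. The Col11a1 window (62.4% G and C) has 7 CG pairs, 2 GGGCGG and 1 CCAAT. The Col24a1 window and the upstream Col9a1 window (43.6%) hold none of the 3 motifs, and the downstream Col9a1 window (56.0%) holds 1 CCAAT. So no motif was found in all 5. Windows were found for 33 of the 42 collagen genes, 36 in all. GGGCGG stood in 58.3% of them, against 32.7% of 32851 windows of all genes, CCAAT in 36.1% against 33.8%, and TATAAA in 13.9% against 12.4%. The median G and C content was 59.0% against 52.4%. A match is a description of letters and no evidence of binding.

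The chains of the main fibrils showed no called difference with age. Col1a2, a chain of type I collagen, had 564, 824, 652, 713 and 538 in old control mice, against 589, 754, 939, 654 and 785 in young control mice. The ranges overlapped and the log2 difference was -0.17 ± 0.15 (SE, 95% interval -0.49 to 0.14). Col1a1, its partner chain, had a dim probe set and the only positive estimate of the fibrillar class. It read 264, 236, 232, 209.9 and 226 in old control mice, against 221, 158, 268, 139 and 189 in young control mice (0.27 ± 0.17, adjusted p = 0.267). Type III, encoded by Col3a1, accompanies type I around vessels and in the meninges. Its signals were 222, 245, 322, 153 and 202 in old control mice, against 321, 385, 412, 297 and 245 in young control mice. The estimate was -0.52 ± 0.20 (adjusted p = 0.0688), which did not pass. It passed without young control mouse 5 (adjusted p = 0.0467) or without old control mouse 3 (adjusted p = 0.0292), so that single mice decided on which side of the threshold it fell.

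The other fibrillar genes ran from -0.53 for Col2a1, the chain of cartilage collagen, to -0.09 for Col11a2, the partner of Col11a1. Col5a2, Col5a3 and Col27a1 lay between, at -0.31, -0.24 and -0.16. Col5a2, a partner chain of Col5a1, had 128 to 462 in old control mice, against 154 to 582 in young control mice. None of these 5 passed, and all had overlapping ranges. Their adjusted p ran from 0.202 to 0.709. With the old groups joined, Col5a3 was at -0.28 ± 0.11 (adjusted p = 0.058).

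**Figure D3:**
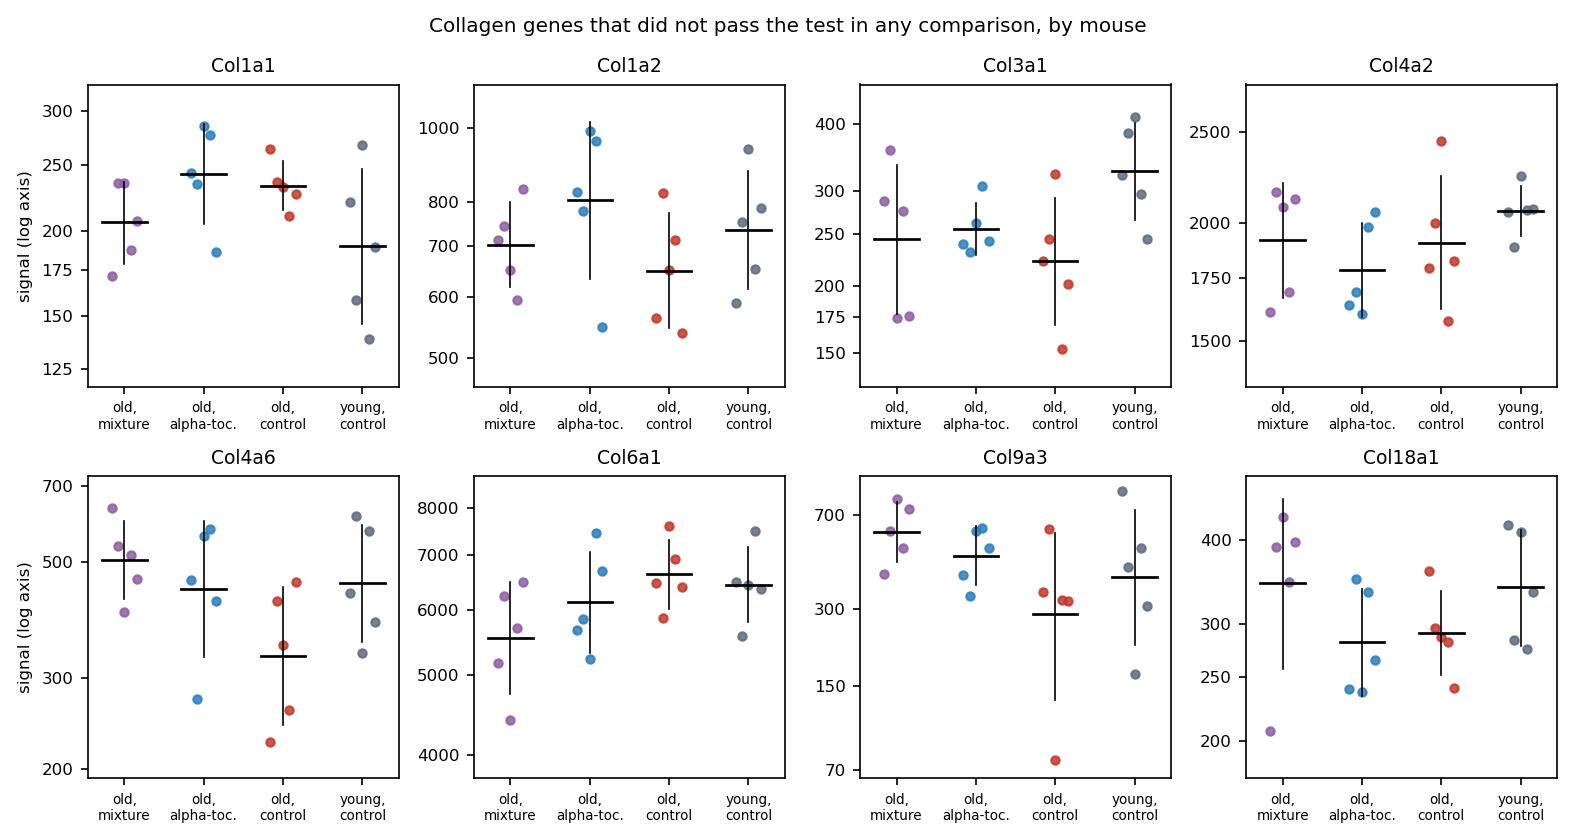
Deposited signal (log axis) of 8 collagen genes whose brightest probe set, shown here, was called in no comparison of the main test. Each mouse is a point, with the mean of log2(signal + 16) as a bar and ±1 SD as a line (n = 5 per group). Other probe sets of Col9a3 and Col18a1 were called lower over all old groups in other tests, as given in the text. The groups overlap in every panel, and Col9a3 has an old control mouse at 76.7 against 324 to 621 in the other old control mice.

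Col4a1 and Col4a2 encode the chains of the ubiquitous type IV network. By its brightest probe set Col4a1 had 2538, 2373, 2901, 2368 and 2306 in old control mice, against 2719, 2614, 2353, 2513 and 2558 in young control mice. The groups overlapped over most of their range. The log2 difference was -0.03 ± 0.07 (95% interval -0.19 to 0.12), so that by this probe set a change of more than 1.14-fold lay outside the interval. Col4a2 had 1792, 2001, 2445, 1576 and 1823 in old control mice, against 2055, 1888, 2248, 2065 and 2069.8 in young control mice, and differed by -0.11 ± 0.11 (adjusted p = 0.476).

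The second probe set of Col4a1 did not share this flat pattern. Old mice had 878 to 1093 with the mixture and 1136 to 1512 with α-tocopherol. The old control mice read 1200.1, 732, 1651, 1084 and 651, against 1712, 1688, 1898, 1753 and 1485 in young control mice. Of the old control mice 1 lay within the young range and 4 lay below it. The log2 difference was -0.75 ± 0.17 between old and young control mice (adjusted p = 0.00658 over all probe sets) and -0.63 ± 0.14 over all old groups (adjusted p = 0.00318). With the β-actin ratio added to the model it was -1.03 ± 0.19 between the control groups (adjusted p = 0.00735). The mean of both probe sets was lower by a called difference of -0.39 (adjusted p = 0.0121). The call for Col4a1 thus depended on the probe set, and which stretch of the transcript each one reads was not analysed here.

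The remaining type IV chains occur in fewer basement membranes. Col4a5 differed by -0.28 ± 0.16 by its brightest probe set (adjusted p = 0.206) and by -0.60 ± 0.16 by the other (adjusted p = 0.0189 over all probe sets). Both estimates were below 0 and only the dimmer probe set passed. With the β-actin ratio in the model its adjusted p was 0.152. Col4a6 had 226, 421, 347, 259.9 and 458 in old control mice, against 435, 614, 334, 572 and 384 in young control mice, with -0.45 ± 0.21 (adjusted p = 0.129). Col4a3 varied widely within groups, from 192 to 562 in old control mice and from 219 to 605 in young control mice, and differed by -0.37 ± 0.32 (adjusted p = 0.431).

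**Figure D4:**
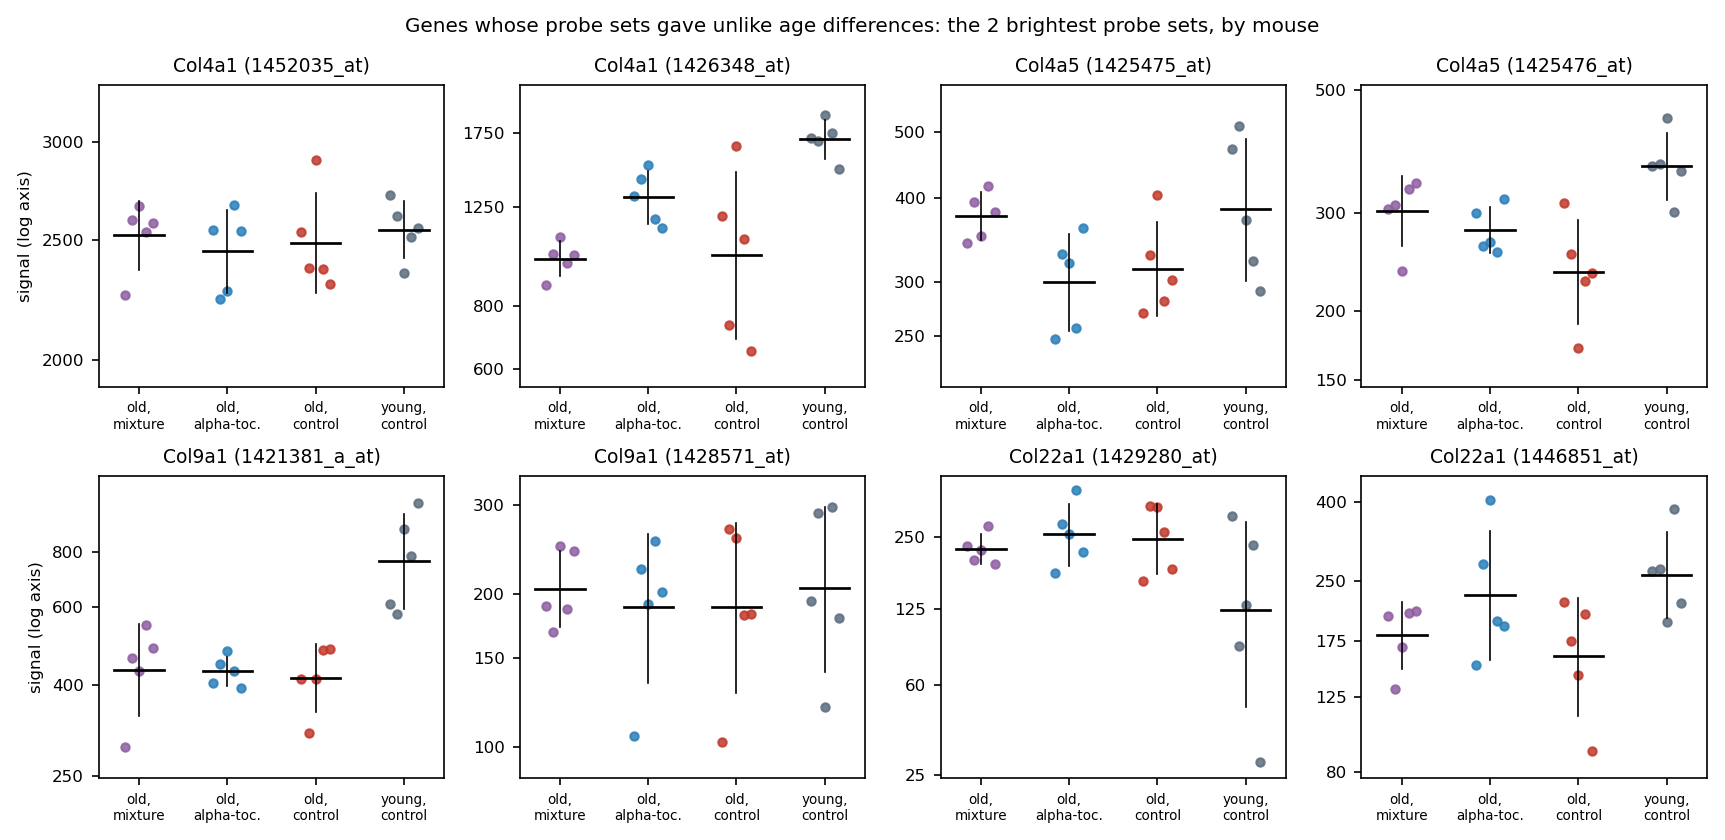
Deposited signal (log axis) by mouse for the pair of brightest probe sets of Col4a1, Col4a5, Col9a1 and Col22a1, with the probe set identifier above each panel, the mean of log2(signal + 16) as a bar and ±1 SD as a line (n = 5 per group). The left panel of each pair is the probe set that represents the gene, and for Col4a1 only the right one shows most old mice below the young.

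Type VI collagen forms beaded filaments near basement membranes from the chains of Col6a1, Col6a2 and Col6a3. Col6a1 did not differ by a called amount, with 6484, 5873, 7605, 6922 and 6412 in old control mice, against 6488, 5579.5, 6435, 7501 and 6376 in young control mice (0.04 ± 0.10, 95% interval -0.18 to 0.26). Col6a2 had 3122, 2181, 2363, 2169.5 and 2019 in old control mice, against 3072, 3054, 2982, 2979 and 2298 in young control mice. In each group 1 mouse stood apart, high at 3122 among the old and low at 2298 among the young. The difference was -0.29 ± 0.12 between control groups (adjusted p = 0.0825) and -0.31 ± 0.10 over all old groups (adjusted p = 0.0199). The call over all old groups was lost when any of young control mice 1 to 4 was left out (adjusted p up to 0.0585), with array medians set equal (adjusted p = 0.116) and with the mean of its probe sets (adjusted p = 0.0959).

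Col6a3 was called lower between the control groups alone, and at the edge of the threshold. In supplemented old mice its signals were 586, 636, 632, 625 and 671 with the mixture and 567, 605, 691, 632 and 575 with α-tocopherol. Old control mice had 543, 553, 499.8, 553 and 478, against 650.0, 543, 834, 723 and 546 in young control mice. The old control mice lay below every supplemented old mouse but overlapped with the young, of which 2 lay within the old control range. The log2 difference was -0.30 ± 0.11 (adjusted p = 0.0486). The call was kept in 3 of the 20 fits that left out a mouse, with adjusted p up to 0.154 in the others, and under 6 of 12 alternatives. Over all old groups the difference was -0.14 ± 0.09 (adjusted p = 0.227).

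Type IX collagen decorates fibrils of cartilage and the eye and joins chains of Col9a1, Col9a2 and Col9a3. The Col9a1 probe set showed the most negative estimate of the collagen genes. Signals were 290.5 to 548 with the mixture and 395 to 478 with α-tocopherol. The old control mice read 413, 312, 413, 481 and 482, against 611, 578, 900.2, 782 and 1029.7 in young control mice. All 15 old mice lay below all 5 young mice. The mean was 420.4 ± 69.6 in old control mice and 780.3 ± 191 in young control mice (SD, n = 5 each), with a log2 difference of -0.85 ± 0.17 (SE, adjusted p = 0.00116), or 1.8-fold lower. The name of this probe set ends in _a_at. An alternative setting left out every probe set whose name ends in _a_at, _s_at, _x_at or _f_at. The other, dimmer probe set of Col9a1 had 102 to 269 in old control mice, against 119.9 to 297 in young control mice, and differed by -0.11 ± 0.27 (adjusted p = 0.84). The call was lost when probe sets with these endings were left out, and held under the other 11 alternatives and without any of the 20 mice.

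Its partner genes varied much more between mice. Col9a3 had 350.4, 620.5, 76.7, 325 and 324 in old control mice, against 867, 437, 167, 519 and 308 in young control mice, and differed by -0.47 ± 0.39 (adjusted p = 0.402). Its SD within groups, 0.72 on the log2 scale, was exceeded among the 42 genes only by that of Col6a4. Another probe set of Col9a3 was called lower over all old groups when every probe set was tested on its own. Col9a2 differed by -0.27 ± 0.29 (adjusted p = 0.525). The summed choroid plexus signal of the same old control mice, 1 to 5, was 15666, 48359.8, 10530, 11847 and 52403, and the mouse lowest in it was also the lowest for Col9a2 and Col9a3; its part was not tested.

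Col22a1, a fibril-associated chain found at tissue junctions, was called higher over all old groups. Old mice had 231, 200.0, 221, 279 and 193 with the mixture and 178, 286, 258, 394 and 217 with α-tocopherol. Old control mice had 164, 340.1, 334, 263 and 184, against 309, 87.4, 129.9, 233 and 28.5 in young control mice. Of the young mice 3 lay below every old mouse and 2 lay among them. The log2 difference was 0.88 ± 0.30 over all old groups (adjusted p = 0.0284) and 0.91 ± 0.36 between the control groups (adjusted p = 0.0739). Without young control mouse 2 the difference over all old groups was 0.77 (adjusted p = 0.0871), and without young control mouse 5 it was 0.47 (adjusted p = 0.168). Of the other 2 probe sets of the gene, 1 had an estimate of the opposite sign, -0.65 ± 0.26 between the control groups (adjusted p = 0.113), and the dimmer one was at 0.18 ± 0.54 (adjusted p = 0.871). Tested among all probe sets, the brightest had an adjusted p of 0.0535 over all old groups. The mean of the probe sets differed by 0.23 over all old groups (adjusted p = 0.449).

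The other fibril-associated chains, of Col12a1, Col14a1, Col16a1, Col19a1 and Col20a1, had estimates from -0.15 (Col14a1) to 0.02 (Col16a1) between the control groups, with adjusted p from 0.514 to 0.938. Col19a1, a collagen made by subsets of neurons, had 1374 to 1996 in old control mice, against 1532 to 1935 in young control mice (-0.12 ± 0.13).

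The transmembrane collagens gave the 1 gene called higher in both age comparisons. Col13a1 encodes a membrane collagen known from the neuromuscular junction. Signals were 187, 132, 171, 314 and 215 with the mixture and 241, 226, 162, 198 and 146 with α-tocopherol. The old control mice read 254, 242, 196, 239 and 293, against 136, 144, 169, 114 and 170.5 in young control mice. The control groups did not overlap, and both supplemented groups reached into the young range. The mean was 245 ± 34.5 in old control mice and 147 ± 23.7 in young control mice (SD, n = 5 each), 1.61-fold higher in old control mice, with a log2 difference of 0.68 ± 0.20 (SE, adjusted p = 0.019). With the β-actin ratio added to the model it was 0.70 (adjusted p = 0.0903). The call was lost without old control mouse 5 (adjusted p = 0.0503). Over all old groups the difference was 0.48 ± 0.17 (adjusted p = 0.0321), a call lost without young control mouse 1, 2 or 4 (adjusted p = 0.0691, 0.0632 and 0.104). The mean signal over all mice, 191, lies just above the limit of 184 below which genes were not tested.

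Col25a1, whose shed product is found in amyloid plaques of human brain, had 1381, 2197, 1509, 1731 and 1556 in old control mice, against 1862, 1669, 1551, 1578 and 1498 in young control mice. The difference was 0.02 ± 0.11 (95% interval -0.20 to 0.25). Col23a1 differed by -0.21 ± 0.19 (adjusted p = 0.436). The chains of types XV and XVIII bind the outer face of vessel basement membranes, and type XVIII yields endostatin. Col15a1 had 325 to 495 in old control mice, against 434 to 576 in young control mice (-0.30 ± 0.14, adjusted p = 0.123). Col18a1 had 240.4 to 359.6 in old control mice, against 275 to 422 in young control mice (-0.22 ± 0.18, adjusted p = 0.42). Its brightest probe set is marked for possible cross-hybridisation. With probe sets ending in _a_at, _s_at, _x_at or _f_at left out, Col18a1 was called lower over all old groups (-0.73, limma adjusted p = 0.0429). Col8a1, a network chain of vessel walls, had 245, 182, 208, 223 and 182 in old control mice, against 268, 271, 306, 273 and 246 in young control mice. These groups did not overlap, yet the difference of -0.37 ± 0.19 was not called (adjusted p = 0.163). Col7a1 and Col26a1 were at -0.11 and 0.09 (adjusted p = 0.678 and 0.706).

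The 6 genes below the filter were Col8a2, Col6a4, Col6a5, Col4a4, Col17a1 and Col10a1, and they were not tested in the main comparisons. Their mean signals over all mice ran from 20.8 for the probe set of Col10a1 to 178 for that of Col8a2. The highest mean signal of a member, 6178, came from the probe set of Col6a1, but probe sets bind with unlike strength and these signals do not rank the genes. Col6a5, whose chain is related to type VI, read 134, 54.2, 49.8, 32 and 26.3 in old control mice, against 118, 185, 169.8, 168 and 69.1 in young control mice. Col4a4 read 20.6, 28.8, 22.8, 33.3 and 21.7 in old control mice, against 63.8, 38.5, 32.5, 39.4 and 69.9 in young control mice. Both were dim in every mouse.

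Vitamin E gave no called difference in any collagen gene. With the mixture against old control mice, 0 of 36 passed and 4 had an unadjusted p under 0.05, while 4.52% of all genes tested, 603 genes, were called. That number was 186 without mixture mouse 5, 83 with quantile normalization and 0 with the β-actin ratio in the model. With α-tocopherol against old control mice, 0 of 36 passed, 1 had an unadjusted p under 0.05, and 0.0% of all genes were called. With the mixture against α-tocopherol, 0 of 36 passed, 0 had an unadjusted p under 0.05 and 0.0% of all genes were called. In limma, 2550, 753 and 1163 of all genes had an unadjusted p under 0.05 in these 3 comparisons. The median log2 difference of the collagen genes was 0.03, 0.01 and 0.01. The 95% interval lay within 1.5-fold in either direction for 25, 26 and 27 of the 36 genes, so that for the others a change of that size was not excluded by the interval. These comparisons share mice among themselves and with the age comparisons.

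Of the genes lower with age, Col11a1 differed by -0.03 with the mixture (95% interval -0.26 to 0.21) and by -0.13 with α-tocopherol (-0.37 to 0.11), each against old control mice. Col9a1 differed by 0.06 (-0.28 to 0.40) and 0.05 (-0.30 to 0.39), and Col5a1 by -0.03 (-0.27 to 0.20) and -0.01 (-0.25 to 0.23). These intervals reach at most 1.32-fold from no change. For these 3 genes the age difference between the control groups, with its sign turned, lay outside both intervals. That age difference has an error of its own and shares the old control mice. For Col5a1 its 95% interval, -0.65 to -0.17, overlapped both diet intervals once its sign was turned. Col24a1 differed by 0.05 and -0.05, Col13a1 by -0.29 and -0.32, with the mixture and with α-tocopherol.

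Among the estimates with the smallest p for the mixture were Col4a6 (0.59 ± 0.21, limma adjusted p = 0.114), Col9a3 (1.03 ± 0.39, adjusted p = 0.13) and Col6a3 (0.26 ± 0.11, adjusted p = 0.19) on the higher side. On the lower side were Col6a1 (-0.26 ± 0.10, adjusted p = 0.172), Col13a1 (-0.29) and Col19a1 (-0.15). Col4a6 had 636, 536, 402, 515 and 463 with the mixture, against 226, 421, 347, 259.9 and 458 in old control mice, with overlapping ranges. Col6a3 ranges did not overlap, as given above. Col6a1 had 5175, 6243, 4405, 5709 and 6487 with the mixture, against 6484, 5873, 7605, 6922 and 6412 in old control mice.

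With α-tocopherol the smallest p values were those of Col9a2 (0.71 ± 0.29, adjusted p = 0.857), Col6a3 (0.22 ± 0.11, adjusted p = 0.857) and Col1a2 (0.30 ± 0.15, adjusted p = 0.857) on the higher side, and Col13a1 (-0.32), Col11a1 (-0.13) and Col6a1 (-0.11) on the lower side. Col9a2 had 249, 293, 232, 269 and 192 with α-tocopherol, against 143, 224, 52.9, 240.5 and 138 in old control mice. The summed choroid plexus signal was 32032 to 39096 with the mixture, 18569 to 48056 with α-tocopherol and 10529.8 to 52403 in old control mice, of which 3 lay below every other array. That of the meningeal genes was 30425 to 37058 with the mixture and 33949.8 to 47067 with α-tocopherol, again mostly Ptgds. By gene, 11 of 14 estimates were above 0 with the mixture against old control mice (median 0.26). Of these genes 2 were called higher, 14.3% of the list, against 1.36% of all genes. With α-tocopherol against old control mice, 13 of 14 meningeal estimates were above 0 (median 0.34, 0 called). Their part in the estimates for Col9a2, Col9a3 and Col1a2 was not tested.

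**Figure D5:**
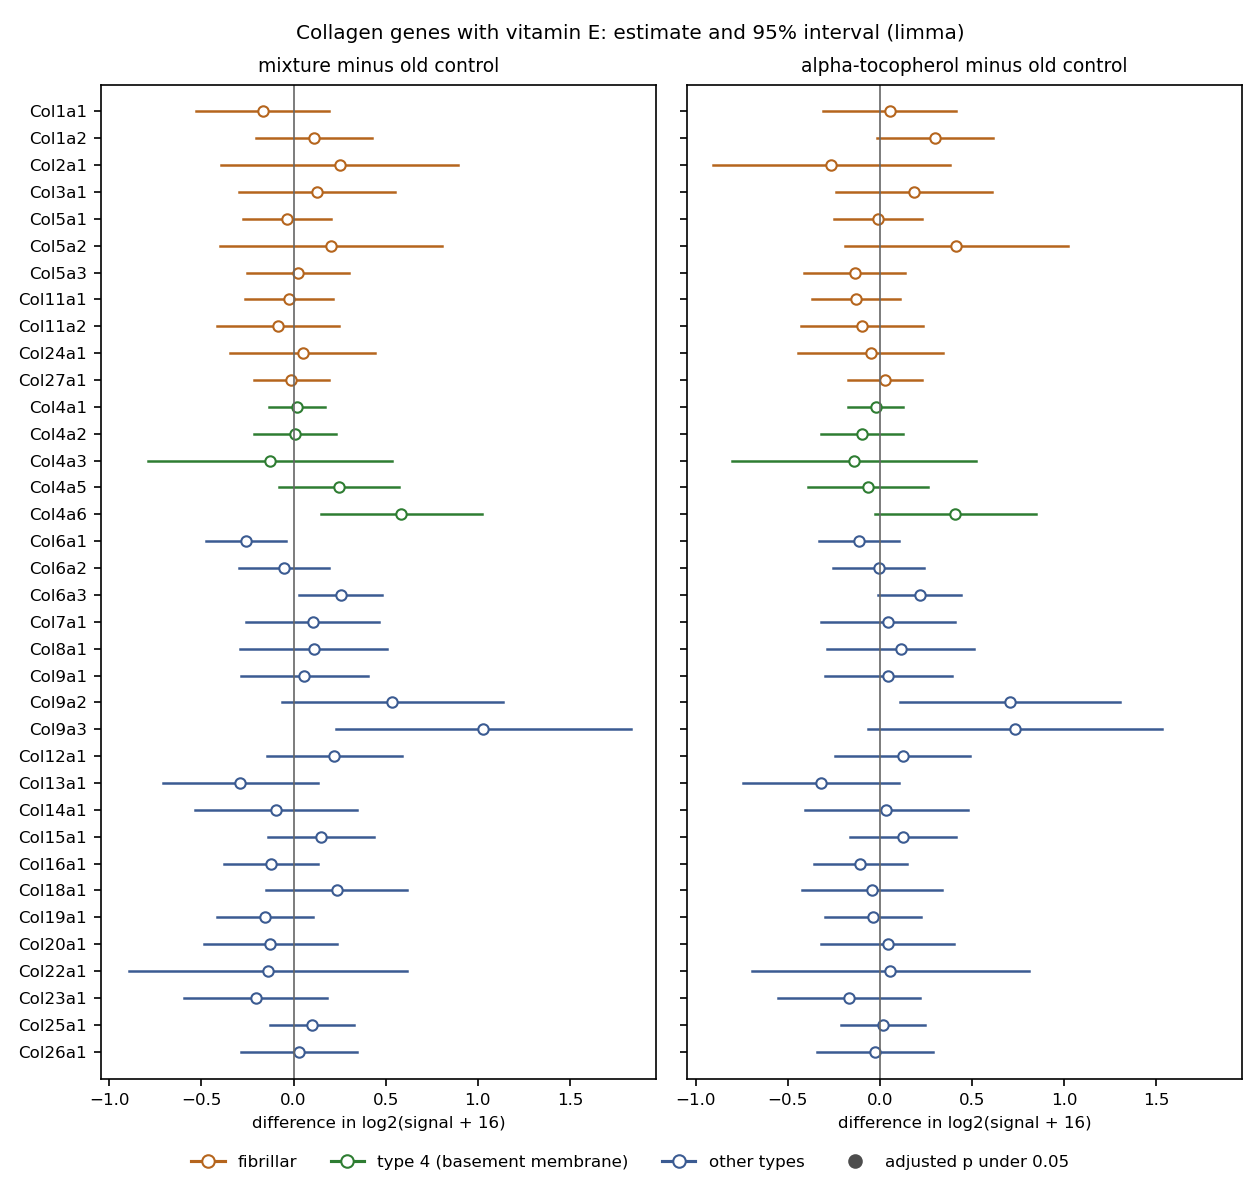
Difference in log2(signal + 16) for each of the 36 tested collagen genes (rows), as estimate and 95% interval from limma, for the mixture minus old control mice (left) and α-tocopherol minus old control mice (right). No point is filled, since 0 genes had an adjusted p under 0.05, and the widest intervals are those of Col9a3 and Col22a1.

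The mixture and α-tocopherol were also set against each other directly. The estimates with the smallest p were Col4a5, at 0.31 ± 0.16 (95% interval -0.02 to 0.64, adjusted p = 0.604), Col2a1, at 0.51 ± 0.31 (adjusted p = 0.683), and Col18a1, at 0.28, on the higher side. On the lower side they were Col6a1 (-0.14), Col1a1 (-0.22) and Col1a2 (-0.19). Col4a5 had 342, 394, 352, 417 and 380.3 with the mixture, against 247, 330.1, 320.5, 257 and 361 with α-tocopherol. The groups overlapped in this narrow band of signals.

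Chains that share a protein were also compared mouse by mouse, as deviations from the group means over 20 mice. Col4a1 and Col4a2 had Pearson's r = 0.615 (Spearman's rho = 0.519), with permutation p of 0.0179 and 0.0375 and adjusted p of 0.108 and 0.225 over 6 relations. Without the 2 mice farthest from the median of Col4a1, r was 0.249, so the relation rested on them. Col1a1 and Col1a2 had r = 0.462 and rho = 0.43 (permutation p = 0.0701 and 0.0945, adjusted p = 0.21 and 0.283), and r = 0.324 without the 2 farthest mice. The other 4 relations, of Col3a1 with Col1a2, of the meningeal transporter gene Slc6a13 and the choroid plexus gene Ttr with Col1a2, and of the endothelial gene Cldn5 with Col4a1, had r from -0.107 to 0.282 and rho from 0.029 to 0.212, with adjusted permutation p from 0.67 to 0.911.

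Genes that make, bind and degrade collagen gave a mixed picture with age. Of 26 tested genes of collagen assembly and processing, 4 were called lower (15.4%) and 0 higher between old and young control mice, against 10.4% and 12.4% of all genes. They were Loxl4 (-0.81), an enzyme family member that crosslinks chains, Colgalt1 (-0.41), which adds galactose, and Plod2 (-0.31) and Plod3 (-0.19), which hydroxylate lysine. Colgalt1 ran from 2144 to 2948 in old control mice and from 3133 to 3914 in young control mice, without overlap. In the 3 old groups together, Bmp1 (-0.31), which cleaves procollagen ends, and P4ha1 (-0.28), a prolyl hydroxylase, were lower and Adamts3 (0.22), a procollagen protease, was higher. There, 19.2% of the list was called lower and 3.85% higher, against 15.1% and 15.4% of all genes.

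Of 7 tested receptor genes, Itga2, an integrin chain that binds collagen, was called lower between the control groups (-0.67; 14.3% of the list, against 10.4% of all genes), with 230.3 to 336 in old control mice, against 336 to 546 in young control mice. With the old groups joined, its partner Itgb1 was called higher (0.41), 14.3% of the list, against 15.4% of all genes. Between the control groups Itgb1 differed by 0.15 (limma adjusted p = 0.544). Against old control mice it was at 0.49 with the mixture and 0.28 with α-tocopherol. Of 11 breakdown genes, Mmp8 (-0.65), a collagenase, and Ctsk (-0.58), a collagen-degrading cathepsin, were lower and the inhibitor gene Timp4 (0.45) was higher. These are 18.2% lower and 9.09% higher, against 10.4% and 12.4% of all genes. Over all old groups Mmp9 was also lower (-0.56) and Timp3 higher (0.29). There, 27.3% of the breakdown list was called lower and 18.2% higher, against 15.1% and 15.4% of all genes. Mmp8 had 156 to 248 in old control mice, against 275 to 349 in young control mice, without overlap.

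Other genes of basement membranes gave few calls. Of 11 tested, Agrn, a heparan sulphate proteoglycan, was called lower between the control groups (-0.43; 9.09% of the list, against 10.4% of all genes), with 3056 to 4763 in old control mice, against 5024 to 5888 in young control mice. Hspg2, which encodes perlecan, joined it over all old groups (-0.38; 18.2% of the list called lower, against 15.1% of all genes). Of 7 small proteoglycan genes, 0 passed in limma between the control groups and 1 had an unadjusted p under 0.05. The smallest p on either side of 0 were those of Prelp (0.29) and Podn (-0.14). In the 3 old groups together, Ogn (0.54) and Prelp (0.40) were higher, 28.6% of the list, against 15.4% of all genes. Between the control groups Ogn differed by only 0.09 (limma adjusted p = 0.74). Against old control mice it was at 0.60 with the mixture and 0.76 with α-tocopherol, so its joined estimate rests largely on the supplemented mice.

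Transforming growth factor β is a known inducer of collagen synthesis. Of 13 genes of its pathway, 2 were called higher (15.4%) and 0 lower between old and young control mice, against 12.4% and 10.4% of all genes. They were Tgfb1 (0.75), a ligand, with 282 to 418 in old control mice, against 176 to 255 in young control mice, and Ltbp3 (1.07), which binds the latent ligand, with 2974 to 3485 in old control mice, against 1458 to 1714 in young control mice. The groups were apart for both. The marker genes of microglia (5 of 5 tested) and astrocytes (6 of 6) were called higher in the same comparison, as were 3 of 4 of oligodendrocytes and 5 of 8 of neurons, and their part in these differences was not tested.

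With the mixture against old control mice, 1 of the 7 proteoglycan genes, Ogn, was called higher (0.60, limma adjusted p = 0.0488), with 404 to 662 with the mixture, against 233 to 490.0 in old control mice. Of the 13 TGF-β genes, the receptor gene Tgfbr1 was higher (0.40) and Ltbp3 lower (-0.55). Over all genes 4.52% were called in this comparison, and these 3 calls, like all others in it, were lost with the β-actin ratio in the model. In the same comparison 4 of 8 cortical neuron genes were called lower, with all 8 estimates below 0, and 2 of 14 meningeal genes, of which Ogn is one, were called higher. The part of these markers was not tested. Of the assembly, receptor, breakdown and other basement membrane genes 0 passed in limma, with 8, 2, 0 and 1 at an unadjusted p under 0.05. The smallest p on the higher and on the lower side were those of Plod1 (0.30) and Colgalt1 (-0.30) for assembly, Itgb1 (0.49) and Ddr2 (-0.19) for receptors, Mmp2 (0.10) and Fap (-0.30) for breakdown, and Sparc (0.23) and Hspg2 (-0.29) for basement membranes.

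With α-tocopherol against old control mice, 0 genes of the 6 lists passed in limma, with 2 assembly, 0 receptor, 0 breakdown, 2 proteoglycan, 1 basement membrane and 1 TGF-β gene at an unadjusted p under 0.05. The smallest p on the higher side were those of Pcolce (0.91), Itgb1 (0.28), Mmp2 (0.17), Ogn (0.76), Lamc3 (0.42) and Tgfbr1 (0.27), list by list. On the lower side they were those of P3h3 (-0.29), Itga2 (-0.06), Timp4 (-0.15), Podn (-0.16), Agrn (-0.19) and Tgfb2 (-0.21).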

How the data were processed

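RNA of the neocortex of 20 mice was labelled as biotinylated cRNA from an oligo-dT primer, per the labels' protocols, and each was hybridised to an Affymetrix array of 45101 probe sets. The authors deposited a linear signal intensity per probe set, made with the software named GCOS per the submitters' processing notes. Its corrections for background and its summary of probes were not given in the sources used here. With 5 arrays per group, their number limits the precision.

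From the deposited intensity, log2(signal + 16) was computed, and differences are on that scale, which understates changes of dim genes. Of the 45037 probe sets that are not controls, 34945 carry 1 symbol in the platform annotation, 932 several and 9160 none. The brightest probe set with 1 symbol stood for a gene, and genes whose probe set lay in the top 60% by mean log2 signal were tested (signal above 184). limma 3.58.1 in R 4.3.3 (lmFit, contrasts, eBayes with a trend) was fitted to all 4 groups, two-sided, with Benjamini-Hochberg adjustment over 13351 genes and a threshold of 0.05. Labels give replicate numbers 1 to 5 in each group but do not tie them to shared litters or days. The fit was tested on simulated data. Other offsets, quantile and loess normalization, equal array medians, filters, probe set choices, a β-actin covariate, a replicate block and leaving out each mouse were tried. Tests of every probe set on its own were added after seeing the data.

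Named are all collagen genes past the threshold, 13 main chains, and the 3 smallest p per direction where none passed. The members and gene lists were chosen with earlier results of these data known. Promoter windows come from RefSeq tables on GRCm38.p6.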

Additional observations from a re-analysis of the deposited data

Results flagged for a closer look

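Among 96 combinations of a gene and a group, 2 held a mouse whose gap to the nearest other mouse was large for the range of its group (Dixon's test at 95%). Chance alone gives about 5% of such groups. Col5a2, a type V chain, read 257 in mouse 5 on α-tocopherol, the lowest of its group, against 344 to 358 in the other 4. Col6a2, a type VI chain, read 2298 in young control mouse 5, the lowest of its group, against 2979 to 3072 in the other 4. Without that mouse the difference of Col6a2 between old and young control mice was -0.37 (limma adjusted p = 0.0356), against -0.29 (adjusted p = 0.0825) with all mice.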

How the results depend on the processing

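Of the collagen genes, 6 were called between old and young control mice, against 3 (0 higher, 3 lower) with the β-actin ratio in the model. Of those 6, Col11a1 and Col9a1 kept the call. Tests of every probe set on its own, added after seeing the data, called 6 genes. These were Col13a1, higher, and Col11a1, Col4a1, Col4a5, Col5a1 and Col9a1, lower. With that covariate they called 3, namely Col11a1, Col4a1 and Col9a1. In the main test, leaving out single mice gave 4 to 7. Over all old groups 7 were called, against 4 (0 higher, 4 lower) of the 16 tested in the top 40%, and 4 to 8 without single mice, the 4 being without young control mouse 2. Over all old groups the tests of every probe set on its own called 8, all lower, among them Col4a1, Col4a5 and Col9a3. With the covariate they also called 8, all lower, among them Col18a1. These tests read 82 probe sets for 42 genes, so that a gene could be called by any of its probe sets. The share of all probe sets called in them, and its direction, is not given here to set beside these counts. The supplement comparisons stayed at 0 in every fit that left out a mouse. The replicate block gave 6 and 7 calls. Deviations of same-numbered mice correlated between -0.124 and 0.196, and whether equal numbers share a litter or a day was not tested. The relation of Col4a1 with Col4a2 had r from 0.432 to 0.72 without single mice. Of 17 other probe sets above the signal limit, 15 had the sign of the gene's brightest one between old and young control mice, and 7 in either comparison of a supplement with old control mice. Over all genes, 3039 calls between old and young control mice became 1158 with the β-actin covariate. Equal array medians made 79.4% of the calls over all old groups higher, against 50.4%, with 2 collagen genes higher and 4 lower. For the mixture against old control mice, 603 genes became 83 with quantile normalization, 91 with loess, 285 with the mean of probe sets and 311 without the trend. They became 243 without probe sets whose names end in _a_at, _s_at, _x_at or _f_at, and 0 with the covariate. Without single mice they were 186 to 661, with 239, 294 and 359 without old control mice 3, 4 and 5. Without mixture mice 4 and 5 they were 375 and 186. Of the mixture calls 5.01% were higher with equal medians and 42.9% with loess, against 30.0%. The cause was not tested. The mean signal of Col13a1, 191, was close to the limit of 184 below which genes were not tested.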
